A study of Mus musculus with 6 samples.

Results

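The complement system was examined in the liver transcriptome as a set of 36 genes, chosen by name and role: 8 of the classical pathway, 7 of the lectin pathway, 4 of the alternative pathway, 7 of the terminal pathway, 7 regulators and 3 receptors. The count table listed 35 of the 36, among 20140 genes in all, and all 35 passed the filter on low counts that left 16370 genes for testing. Cfd (factor D, the serine protease that cleaves factor B) is not analysed here. C7 and C5ar2 passed that filter through the tumor groups, since both had under 10 counts in each sham liver.

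Bulk RNA-seq was done on whole livers of BALB/c mice, 6 to 10 weeks of age, 21 days after surgery, with 2 livers in each of 3 groups. The PMN livers (intra-C) came from mice with CT26 cells, a mouse colorectal carcinoma line, implanted in the cecum, a model of the premetastatic niche. The metastasis livers (intra-S) came from mice that had CT26 cells injected into the spleen, and the sham livers (control) from mice given PBS. The labels give only the short group names, and the model behind each name was taken from the study's methods. The RNA was drawn from all cells of the liver, and CT26 reads cannot be told apart from host reads, because the line carries the mouse genome.

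Complement is a cascade of plasma proteins, most of them made by hepatocytes. C1q on antibody-coated surfaces, or mannose-binding lectins, ficolins and collectins on sugars, activate serine proteases that cleave C4 and C2, and the alternative pathway amplifies the resulting cleavage of C3. Cleavage of C5 then starts assembly of C6, C7, C8 and C9 into the membrane attack complex, while C3a and C5a act on receptors of myeloid cells. C1q, properdin and ficolin A are made largely by macrophages and other myeloid cells, and several hepatocyte components are known as acute phase proteins.

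Promoter sequence is shown first for the members with the most contrasting transcripts below: C3 and Hc, which kept a near constant ratio to each other, and the 3 subunit genes of C8, which moved apart. The sequences are from RefSeq on GRCm38.p6, which has the mm10 coordinates of the study's alignment, and run from 250 bases before to 50 bases after a transcript's start on the gene's own strand. For C3 and C8b that start is the outermost one of the gene in the same annotation, while it lies 89 bases inside the annotated gene for C8a, 58 and 1271 bases inside for C8g and 7094 bases inside for Hc. Capitals mark matches to 4 letter patterns, searched on both strands: TTCNNNGAA (STAT3), TTGCNNAA (C/EBP), GGNNTTTCC (NF-kappaB) and TTAATNATT (HNF1).
C3, chr17:57228087-57228386, minus strand: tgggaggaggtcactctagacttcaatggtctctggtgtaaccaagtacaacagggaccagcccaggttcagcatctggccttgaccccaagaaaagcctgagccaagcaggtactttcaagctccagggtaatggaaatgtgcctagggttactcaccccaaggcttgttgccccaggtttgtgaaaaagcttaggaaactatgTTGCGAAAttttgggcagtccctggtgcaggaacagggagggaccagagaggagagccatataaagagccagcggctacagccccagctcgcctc
Hc, chr2:35061363-35061662, minus strand: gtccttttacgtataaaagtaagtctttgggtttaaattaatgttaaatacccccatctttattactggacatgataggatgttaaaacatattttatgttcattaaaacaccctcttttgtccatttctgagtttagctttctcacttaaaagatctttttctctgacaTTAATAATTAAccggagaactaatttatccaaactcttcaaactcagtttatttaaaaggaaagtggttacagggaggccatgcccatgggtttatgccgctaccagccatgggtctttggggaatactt
C8a, chr4:104876349-104876648, minus strand: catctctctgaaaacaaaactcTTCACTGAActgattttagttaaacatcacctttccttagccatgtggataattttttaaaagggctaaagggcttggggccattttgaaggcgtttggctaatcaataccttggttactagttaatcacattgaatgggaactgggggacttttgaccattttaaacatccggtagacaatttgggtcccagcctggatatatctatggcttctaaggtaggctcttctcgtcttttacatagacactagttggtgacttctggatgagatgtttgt
C8b, chr4:104766067-104766366, plus strand: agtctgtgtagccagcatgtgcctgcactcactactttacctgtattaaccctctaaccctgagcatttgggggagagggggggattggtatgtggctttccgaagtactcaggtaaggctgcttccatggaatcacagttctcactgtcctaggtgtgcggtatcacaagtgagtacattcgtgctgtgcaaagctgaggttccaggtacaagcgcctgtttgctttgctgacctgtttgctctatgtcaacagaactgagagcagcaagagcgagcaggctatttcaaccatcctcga
C8g, upstream start, chr2:25501670-25501969, minus strand: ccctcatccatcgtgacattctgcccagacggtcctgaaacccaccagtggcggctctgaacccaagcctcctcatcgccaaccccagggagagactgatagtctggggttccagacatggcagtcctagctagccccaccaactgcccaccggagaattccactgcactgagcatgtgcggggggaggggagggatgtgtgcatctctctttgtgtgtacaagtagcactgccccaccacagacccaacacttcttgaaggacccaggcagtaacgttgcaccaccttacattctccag
C8g, downstream start, chr2:25500457-25500756, minus strand: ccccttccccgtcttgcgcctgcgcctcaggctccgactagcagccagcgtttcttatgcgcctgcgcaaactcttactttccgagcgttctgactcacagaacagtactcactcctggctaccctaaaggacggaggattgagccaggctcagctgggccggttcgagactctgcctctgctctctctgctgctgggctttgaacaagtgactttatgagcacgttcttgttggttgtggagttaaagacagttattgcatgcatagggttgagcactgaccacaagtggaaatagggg

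The C3 window held a C/EBP match whose first letter lay 45 bases before the transcript's start. In Hc, HNF1 matches on the 2 strands overlapped at 80 and 78 bases before the transcript's start, so that the capitals run through both. C8a had a STAT3 match 228 bases before its transcript's start, and neither C8b nor either C8g window held any of the 4 patterns. A promoter was matched for 27 members, with 30 windows in all. STAT3 matches stood in 6 of the 30 (C1ra, C7, C8a, Colec11, Masp2 and Vtn) against 8.3% of all 32851 promoters of this length, C/EBP matches in 6 (C1ra, C1rl, C1s1, C3, C5ar2 and C9) against 10.8%, NF-kappaB matches in 2 (C1rl and C3ar1) against 5.82%, and HNF1 matches in 2 (C4bp and Hc) against 1.47%. These are matches of letters only.

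The libraries held 32838321 to 43368309 gene counts per liver, so that a count of 0 allows up to 0.0679 to 0.0928 CPM, the unit of library-scaled counts used below (scaled by TMM factors). These floors cover counting error only. The standard errors and intervals below come from the edgeR fit and include the spread between livers, estimated per gene over all groups together. Those of PMN against sham livers thus also carry the wider spread of the metastasis livers. Marker lists of other cell types moved with the groups. The summed level of 10 Kupffer cell and macrophage markers was 187 and 176 CPM in sham livers, 908 and 1121 CPM in PMN livers and 544 and 1023 CPM in metastasis livers. The sum of 11 neutrophil markers was 3.84 and 4.89 CPM in sham livers, with 3 of the 11 at 0 in each. In PMN and metastasis livers the sum was 280 to 1042 CPM, with none at 0. Hepatocyte markers (11 listed, all detected in each liver) summed to 127590 and 122140 CPM in sham, 173040 and 128760 CPM in PMN and 207660 and 159750 CPM in metastasis livers, and Alb was the largest part of each sum. Their part in the results below was not tested, and in whole tissue more cells of a type and more RNA per cell cannot be told apart.

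**Figure D1:**
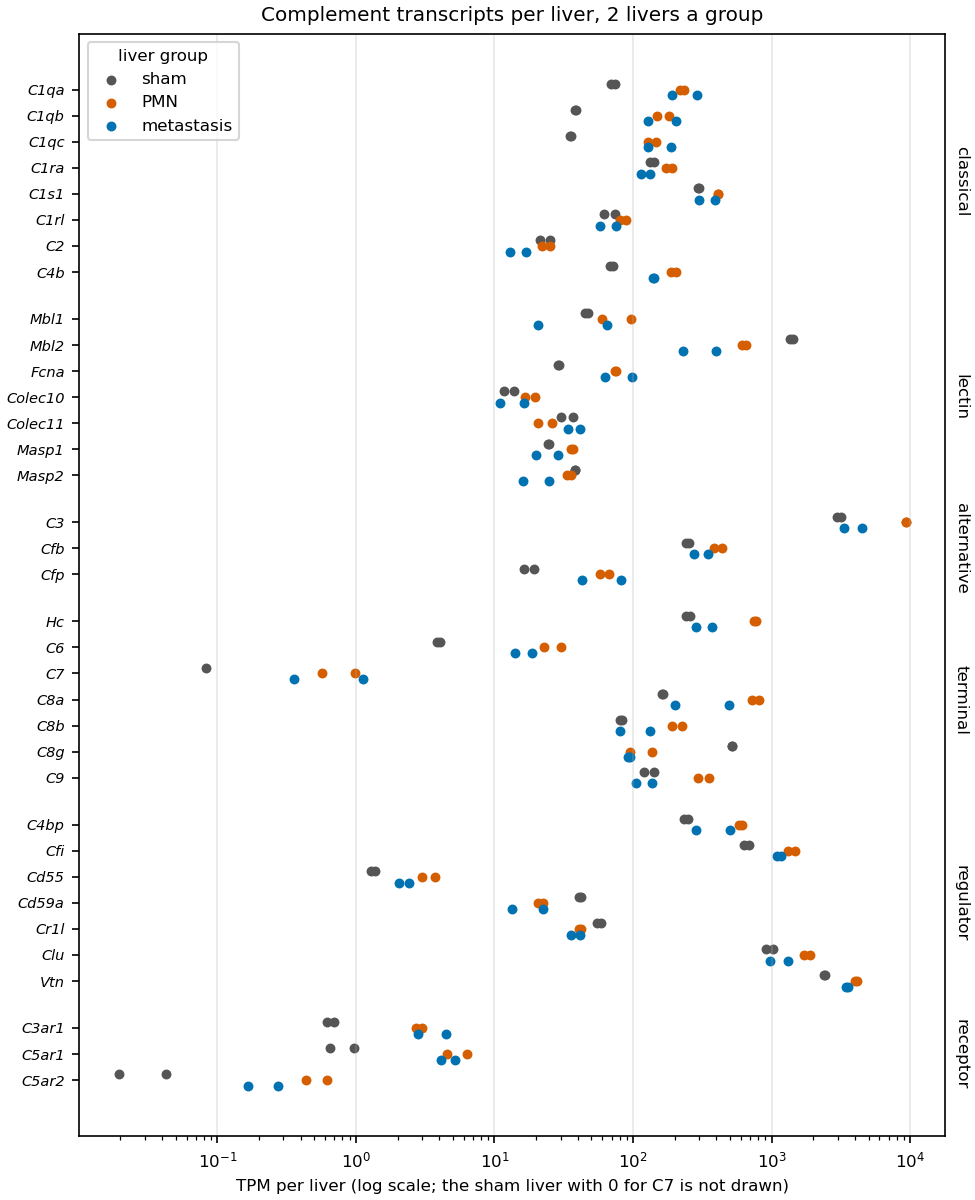
Length-scaled abundance (TPM, log axis) of the 35 listed complement genes, grouped by role, with 1 point per liver and 2 livers in each group. In sham livers C3, Vtn and Mbl2 had the highest TPM. C8a and C8g exchanged order in the PMN and metastasis livers. The receptors, C7 and Cd55 had the lowest TPM in each group.

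The first question was how far complement transcripts differed between sham and PMN livers. In PMN livers, 20 of the 35 members rose and 1 fell, at an adjusted p under 0.05 in edgeR's quasi-likelihood test. Over all genes tested, 4.92% were called higher and 2.38% lower. The median log2 fold change was 1.48 over the members and 0.01 over all genes. Without C7 and C5ar2, 19 of 33 members rose and 1 fell, with a median of 1.27. Summed over all members, the level was 16021 and 16439 CPM in sham livers and 44875 and 42785 CPM in PMN livers, which took the share of complement in all gene counts from 1.80% and 1.87% to 4.06% and 4.21%.

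In metastasis livers, 12 of the 35 members rose and 2 fell relative to sham. The background was 6.78% called higher and 3.95% called lower. Without C7 and C5ar2, 11 of 33 rose and 2 fell, with a median of 0.65. The median was 0.67 for the 35 members and 0.04 for all genes, and the summed level was 23321 and 27573 CPM, above both sham livers and below both PMN livers. Both comparisons used the same sham livers, so they are not independent.

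These calls rest on few libraries. With either sham liver left out, no gene of the whole table was called in either comparison, although 22 and 21 members were still higher in PMN livers, beside 8.68% and 8.28% of all genes, and 13 in metastasis livers, beside 9.81% and 9.63%, at an unadjusted p under 0.05. With either PMN liver left out, C6 was the single member called between PMN and sham livers, and with metastasis liver 1 or 2 left out 21 or 22 members were called higher between metastasis and sham livers, beside 9.58% or 17.3% of all genes. Without a PMN liver, 0.352% or 0.323% of all genes were called higher between PMN and sham livers.

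**Figure D2:**
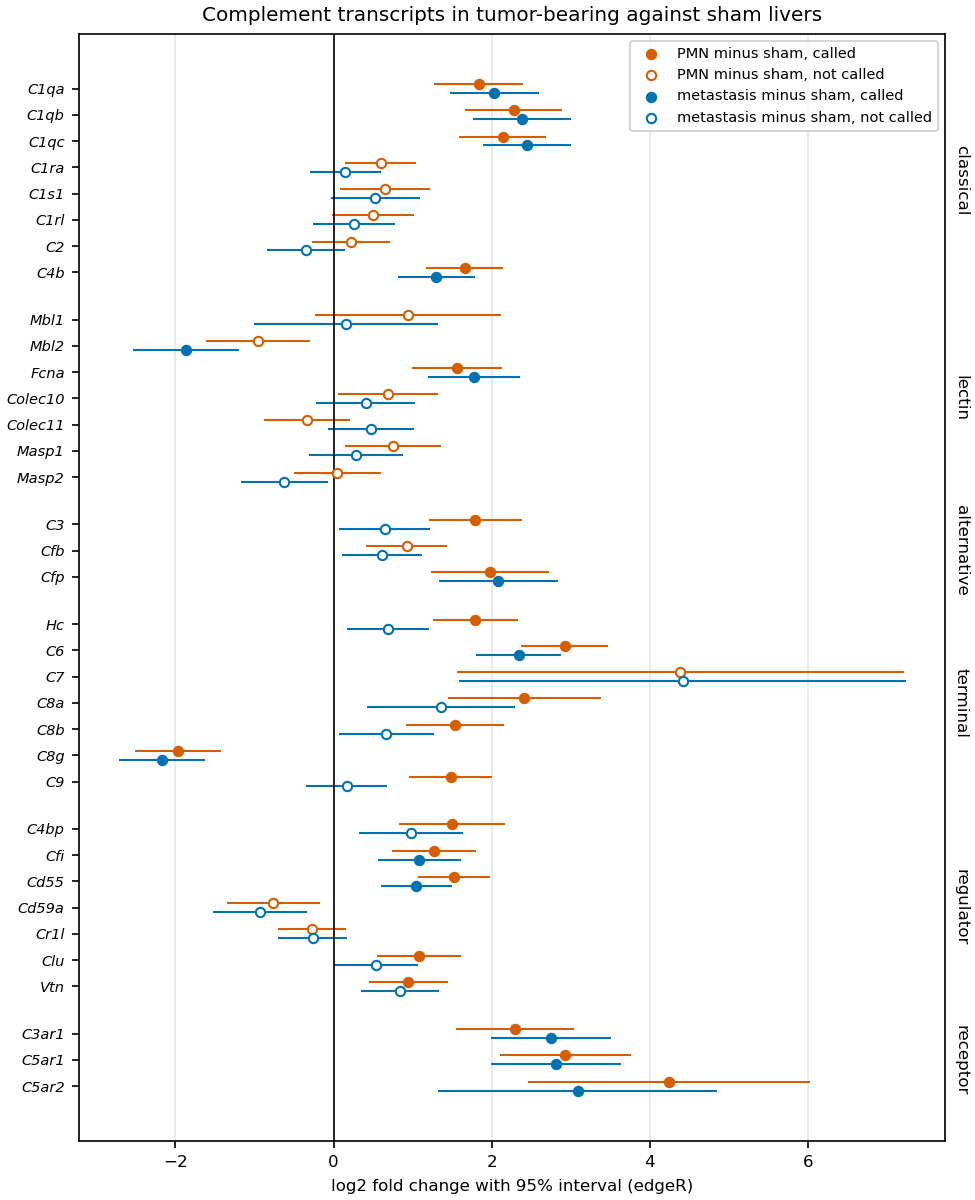
Log2 fold changes (edgeR) of PMN and metastasis livers relative to sham livers, with 95% intervals and filled points for adjusted p under 0.05. All 3 C1q chains and the receptors C3ar1 and C5ar1 were called in both comparisons, C3, Hc, C8a, C8b and C9 in PMN livers, and C8g lay on the opposite side of 0 from the rest of the terminal pathway.

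In the classical pathway, 4 of 8 genes rose in both comparisons, and none fell: the 3 chains of C1q, the recognition molecule, and C4b, whose product is cleaved by C1s and by the lectin pathway proteases. C1qa had 33.1 and 35.95 CPM in sham livers, 123 and 124 CPM in PMN livers and 117 and 165 CPM in metastasis livers. C1qb, from 19.2 and 18.9 CPM, reached 85.4 and 99.1 CPM in PMN and 79.9 and 119 CPM in metastasis livers. The values of C1qc were 17.6 and 17.9, then 75.5 and 81.4, then 81.1 and 112 CPM. For each chain every PMN and metastasis liver stood above both sham livers, and the PMN and metastasis groups overlapped. The log2 fold changes in PMN livers were 1.84 ± 0.23 (SE, adjusted p = 0.013), 2.28 ± 0.26 (adjusted p = 0.0094) and 2.14 ± 0.23 (adjusted p = 0.0083) for C1qa, C1qb and C1qc. In metastasis livers they were 2.03 ± 0.24 (adjusted p = 0.0082), 2.38 ± 0.26 (adjusted p = 0.0071) and 2.44 ± 0.23 (adjusted p = 0.0058).

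The 3 C1q genes lie next to one another on chromosome 4, within 18.7 kb (chr4:136880126-136898844, GRCm38). The TPM scale allows levels of different genes to be compared. On it the C1qb to C1qa ratio was 0.57 and 0.52 in sham livers and 0.67 to 0.79 in PMN and metastasis livers. The C1qc to C1qa ratio was 0.51 and 0.48, then 0.59 to 0.66. All 4 PMN and metastasis livers thus had more C1qb and C1qc per C1qa transcript than either sham liver, a description with no test.

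C4b had 663 and 698 CPM in sham livers, 2139 and 2167 CPM in PMN livers and 1718 and 1639 CPM in metastasis livers, 3 groups without overlap. Its log2 fold change was 1.66 ± 0.20 in PMN (adjusted p = 0.012) and 1.30 ± 0.20 in metastasis livers (adjusted p = 0.016). C4b and C4a are near-identical copies, and reads that match both would not be among the uniquely mapped reads counted. With only sham and metastasis livers fitted, the adjusted p of C4b was 0.0612. C4a stood far lower, at 9.49 and 9.98 CPM in sham and 48.0 and 45.7 CPM in PMN livers.

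The proteases of the C1 complex did not pass the test. C1ra (C1r), C1s1 (C1s) and the C1r-like C1rl had sham means of 168, 412 and 91.5 CPM, and their log2 fold changes were 0.50 to 0.65 in PMN and 0.15 to 0.53 in metastasis livers, with adjusted p of 0.106 or more. They lie together on chromosome 6 (chr6:124493113-124542392, 49.3 kb), and C1ra and C1s1 each have a close copy, C1rb and C1s2, and reads that match both copies would not be counted. C2, the protease zymogen that pairs with C4b in the C3 convertase, had 118 and 99.98 CPM in sham, 122 and 131 CPM in PMN and 77.8 and 93.8 CPM in metastasis livers, and was not called.

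Of the 7 lectin pathway genes, Fcna rose in both comparisons, Mbl2 fell in metastasis livers and the other 5 were not called. Fcna (ficolin A, a macrophage-made lectin) had 22.2 and 22.7 CPM in sham, 68.4 and 64.1 CPM in PMN and 62.4 and 91.4 CPM in metastasis livers. The log2 fold changes were 1.56 ± 0.24 (adjusted p = 0.020) and 1.78 ± 0.24 (adjusted p = 0.013).

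Mbl2 (mannose-binding lectin C, made in hepatocytes) went the other way, with 726 and 772 CPM in sham livers, 384 and 389 CPM in PMN livers and 157 and 254 CPM in metastasis livers. The 3 groups did not overlap. The fall of 1.87 ± 0.28 on the log2 scale in metastasis livers passed the test (adjusted p = 0.015, but 0.0555 when only sham and metastasis livers were fitted), and the difference of -0.95 ± 0.27 in PMN livers did not (adjusted p = 0.086). Mbl1, which encodes mannose-binding lectin A, had 120 and 125 CPM in sham, 187 and 282 CPM in PMN and 69.8 and 203 CPM in metastasis livers, with wide spread between livers of a group. The TPM ratio of Mbl2 to Mbl1 was 29.9 and 30.5 in sham livers, 10.1 and 6.80 in PMN livers and 11.1 and 6.16 in metastasis livers. Mbl2 ranked next after C3 and Vtn by TPM in sham livers (mean of 1390 TPM, 12.5% of the members' sum).

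The remaining lectin pathway genes ranged from 21.9 CPM (Colec11, PMN) to 127 CPM (Masp1, PMN) over all 6 livers. Colec10 and Colec11 encode the collectins CL-L1 and CL-K1, and Masp1 and Masp2 the proteases that lectins activate. Colec11, which also stands on the list of stellate cell markers, had 33.01 and 26.9 CPM in sham, 21.9 and 25.6 CPM in PMN and 47.3 and 35.97 CPM in metastasis livers. That list of 9 markers, Colec11 included, summed to 318 and 294 CPM in sham, 343 and 351 CPM in PMN and 561 and 521 CPM in metastasis livers, with 0 of 9 called in PMN and 3 of 9 called higher in metastasis livers. Masp2 shares 54.9% of its exon bases with Tardbp on the other strand, and no strand setting is given in the sources used here, so its counts are uncertain.

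In the alternative pathway, C3 and Cfp rose in PMN livers, Cfp alone passed in metastasis livers, and Cfb passed in neither. C3, the central component on which the 3 activation pathways converge, had 6840 and 7291 CPM in sham livers, 25310 and 23610 CPM in PMN livers and 9770 and 12360 CPM in metastasis livers. The PMN livers stood above both metastasis livers, which stood above both sham livers. Its log2 fold change was 1.79 ± 0.25 in PMN livers (adjusted p = 0.015) and 0.65 ± 0.24 in metastasis livers (adjusted p = 0.129). C3 was the most abundant member by TPM in each group, with 27.4% of the members' TPM in sham and 41.8% in PMN livers.

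Cfp (properdin, which stabilises the alternative C3 convertase) had 14.1 and 12.0 CPM in sham, 49.4 and 53.5 CPM in PMN and 39.4 and 71.0 CPM in metastasis livers. Log2 fold changes of 1.98 ± 0.31 (adjusted p = 0.021) and 2.09 ± 0.31 (adjusted p = 0.015) followed from these. Cfb (factor B, which supplies the catalytic part of that convertase) had 1239 and 1180 CPM in sham, 2222 and 2366 CPM in PMN and 1707 and 2004 CPM in metastasis livers. Its groups did not overlap, yet the adjusted p was 0.0513 in PMN and 0.110 in metastasis livers. Of the 10 settings that kept all livers, Cfb was called higher in 4 for PMN and 1 for metastasis livers.

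In the terminal pathway, 5 of 7 genes rose and C8g fell in PMN livers, while C6 rose and C8g fell in metastasis livers. Hc, the mouse gene for C5, had 595 and 636 CPM in sham livers, 2248 and 2027 CPM in PMN livers and 896 and 1091 CPM in metastasis livers. This is the order of C3, and the log2 fold change was 1.80 ± 0.22 in PMN (adjusted p = 0.012) and 0.69 ± 0.22 in metastasis livers (adjusted p = 0.091). The TPM ratio of C3 to Hc lay between 11.7 and 12.5 in all 6 livers, while the level of each varied over 3-fold.

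C6, the first component to bind C5b, rose from 6.04 and 6.41 CPM in sham livers to 42.0 and 52.5 CPM in PMN livers and 28.1 and 35.0 CPM in metastasis livers. Its log2 fold changes were 2.92 ± 0.23 (adjusted p = 0.0058) and 2.34 ± 0.22 (adjusted p = 0.0058). C9, which polymerises to form the pore, had 121 and 144 CPM in sham livers, 351 and 389 CPM in PMN livers and 134 and 163 CPM in metastasis livers. It rose in PMN livers (log2 fold change of 1.48 ± 0.22, adjusted p = 0.018), whereas the metastasis livers overlapped the sham livers (0.16 ± 0.22, adjusted p = 0.646). C7 was near the limit of counting, with 6 and 0 counts in sham livers, 47 and 63 in PMN livers and 28 and 97 in metastasis livers, and did not pass (adjusted p = 0.075 and 0.062).

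C8 is built from alpha, beta and gamma chains encoded by C8a, C8b and C8g, and the gamma chain is a lipocalin joined to the alpha chain. C8a had 272 and 269 CPM in sham livers, 1404 and 1481 CPM in PMN livers and 420 and 968 CPM in metastasis livers. C8b had 79.9 and 83.2 CPM, then 223 and 249 CPM, then 103 and 157 CPM. C8g moved in the opposite direction, from 299 and 296 CPM in sham livers to 64.4 and 87.6 CPM in PMN livers and 67.3 and 65.0 CPM in metastasis livers. For each subunit all 4 PMN and metastasis livers lay on one side of both sham livers in CPM. On the TPM scale this did not hold for C8b, which had 81.1 TPM in metastasis liver 1 and 80.3 and 83.4 TPM in sham livers.

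In PMN livers C8a rose with a log2 fold change of 2.42 ± 0.40 (adjusted p = 0.025) and C8b with 1.53 ± 0.26 (adjusted p = 0.025, but 0.0504 without TMM scaling), while C8g fell by 1.97 ± 0.23 on the log2 scale (adjusted p = 0.010). In metastasis livers C8g fell by 2.17 ± 0.23 (adjusted p = 0.0067), and the values of C8a (1.36 ± 0.39, adjusted p = 0.074) and C8b (0.67 ± 0.25, adjusted p = 0.136) did not pass. The TPM ratio of C8g to C8a was 3.16 in both sham livers, 0.13 and 0.17 in PMN livers and 0.46 and 0.19 in metastasis livers. C8g was thus the most abundant of the 3 transcripts in both sham livers and the least abundant in both PMN livers. C8b and C8a are neighbours on chromosome 4 (chr4:104766317-104804548 and chr4:104815679-104876487), while C8g lies on chromosome 2 (chr2:25498650-25501777), all on GRCm38.

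**Figure D3:**
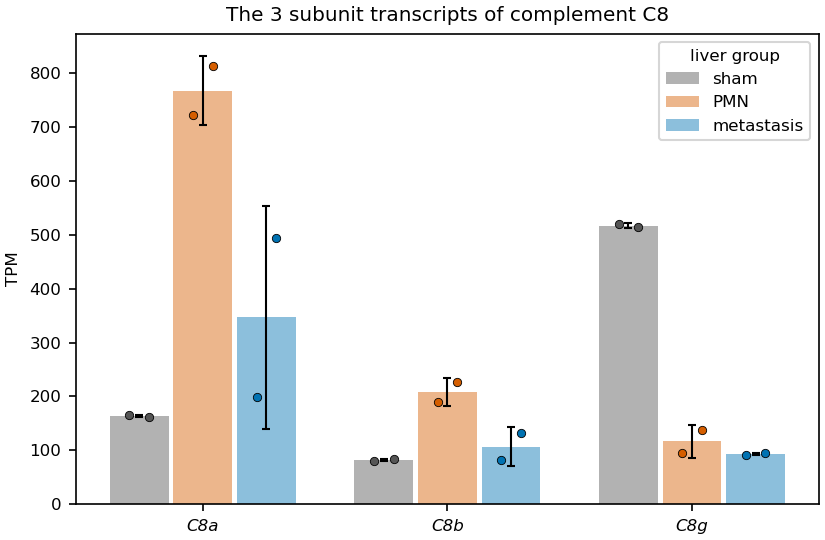
TPM of the C8 alpha, beta and gamma chain transcripts, with bars for group means, error bars for 1 SD and points for the 2 livers of a group. C8g had a mean of 517 TPM in sham livers, above C8a and C8b, and fell below both in PMN livers, where C8a had a mean of 767 TPM.

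Among the 7 regulators, 5 rose in PMN livers and 2 in metastasis livers, and none fell. C4bp (C4b-binding protein, a cofactor for C4b cleavage) had 353 and 334 CPM in sham, 976 and 958 CPM in PMN and 516 and 839 CPM in metastasis livers. It rose in PMN livers (log2 fold change of 1.49 ± 0.28, adjusted p = 0.032, but 0.0611 without TMM scaling), with 0.98 ± 0.28 in metastasis livers (adjusted p = 0.070). Cfi (factor I, the protease that inactivates C3b and C4b) had 582 and 635 CPM, then 1608 and 1334 CPM, then 1371 and 1208 CPM. Both changes of Cfi passed, at 1.27 ± 0.22 (adjusted p = 0.028) and 1.08 ± 0.22 (adjusted p = 0.032), but the second was lost in 4 of 10 settings that kept all livers (adjusted p up to 0.0781).

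Cd55 (decay-accelerating factor, bound to the cell surface) had 12.4 and 11.6 CPM in sham, 32.1 and 37.1 CPM in PMN and 23.7 and 26.03 CPM in metastasis livers. It rose by 1.53 ± 0.19 (adjusted p = 0.012) and 1.05 ± 0.19 (adjusted p = 0.023) on the log2 scale, and the call in metastasis livers was lost in 4 of the 10 settings (adjusted p up to 0.143). Reads that also match the copy Cd55b would not be counted. Clu (clusterin) and Vtn (vitronectin) keep terminal complexes from inserting into membranes. Clu had 984 and 878 CPM in sham, 1940 and 2005 CPM in PMN and 1203 and 1495 CPM in metastasis livers, with log2 fold changes of 1.08 ± 0.22 (adjusted p = 0.040) and 0.54 ± 0.22 (adjusted p = 0.160). The PMN calls of Clu and Vtn were each lost in 4 of the 10 settings (adjusted p up to 0.0883 and 0.112). Vtn had 1878 and 1840 CPM, then 3763 and 3400 CPM, then 3370 and 3281 CPM. Its values of 0.95 ± 0.21 (adjusted p = 0.046) and 0.84 ± 0.21 (adjusted p = 0.0512) lay on either side of the threshold.

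The membrane regulators Cd59a (which blocks C9 addition) and Cr1l (Crry, a cofactor on rodent cells) were not called in the main fit. Of the 10 settings that kept all livers, Cd59a was called lower in 4 for metastasis and 1 for PMN livers, and Cr1l in none. Cd59a had 62.9 and 64.5 CPM in sham and 26.3 to 40.6 CPM in the 4 PMN and metastasis livers. Its log2 fold changes were -0.76 in PMN (adjusted p = 0.110) and -0.93 in metastasis livers (adjusted p = 0.061). Cr1l lay between 38.4 and 50.2 CPM in all 6 livers.

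The receptors C3ar1 and C5ar1 rose in both comparisons, from low levels. C3ar1, the C3a receptor, had 1.18 and 1.34 CPM in sham, 6.11 and 6.28 CPM in PMN and 6.85 and 10.2 CPM in metastasis livers. C5ar1, the main C5a receptor, had 1.11 and 0.747 CPM, then 6.14 and 8.04 CPM, then 6.01 and 7.04 CPM. Their log2 fold changes in PMN livers were 2.30 ± 0.31 (adjusted p = 0.015) and 2.93 ± 0.34 (adjusted p = 0.011), and in metastasis livers 2.76 ± 0.32 (adjusted p = 0.0080) and 2.81 ± 0.34 (adjusted p = 0.0094). For C5ar2, the second C5a receptor, the sham livers had 4 and 2 counts, the PMN livers 67 and 36 and the metastasis livers 17 and 31. Its log2 fold changes of 4.25 ± 0.74 (adjusted p = 0.028) and 3.09 ± 0.74 (adjusted p = 0.047) rest on 6 counts in the sham group. C5ar2 entered the test through the groups in which it was high, so its calls are given as a description and not as support for a rise of the receptors. C5ar2 and C5ar1 are adjacent on chromosome 7 (chr7:16234587-16259540).

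Members known as myeloid products or receptors (C1qa, C1qb, C1qc, Fcna, Cfp, C3ar1, C5ar1 and C5ar2) were called higher in both comparisons. Without C5ar2 the count was 7 of 7 in each, with medians of 2.14 and 2.38 on the log2 scale, and 6 of 7 in metastasis livers when only sham and metastasis livers were fitted (Cfp, adjusted p = 0.0539). Their sum was 109 and 110 CPM in sham livers, 416 and 437 CPM in PMN livers and 394 and 576 CPM in metastasis livers. Kupffer cell and macrophage markers moved with them, 9 of 10 being called higher in PMN livers and 8 of 10 in metastasis livers, and so did the 4 of 11 neutrophil markers with at least 10 counts in each sham liver, called higher in both. Relative to the Kupffer cell marker Clec4f, the TPM of C1qa was 0.95 and 1.04 in sham, 1.03 and 0.77 in PMN and 1.60 and 1.15 in metastasis livers. Relative to Adgre1 it was 40.7 and 29.3, then 13.0 and 10.7, then 46.0 and 17.7. The part of cell number in the rise of these transcripts was not tested.

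**Figure D4:**
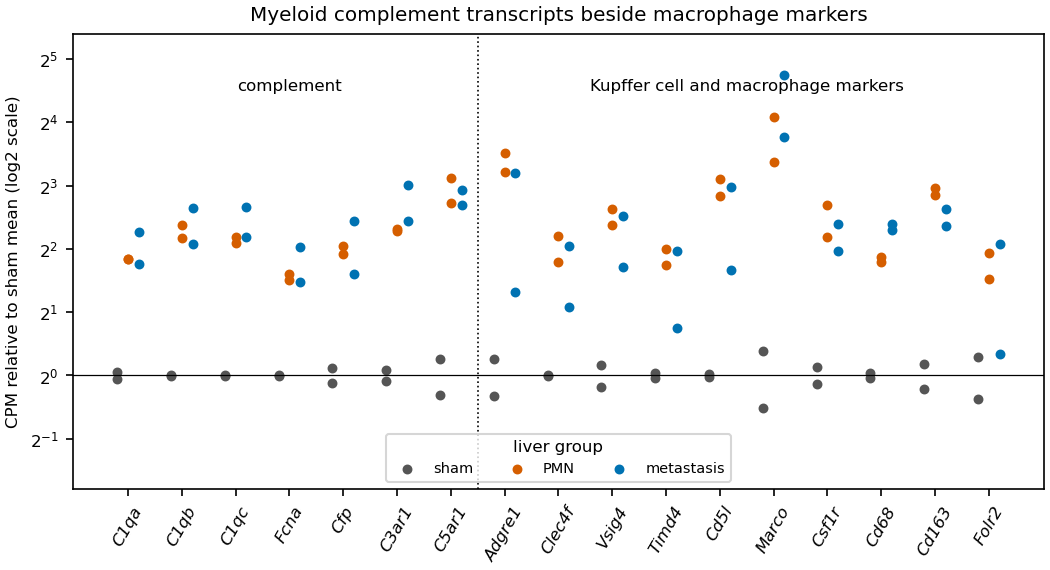
CPM per liver divided by the mean of the sham livers (log2 axis) for 7 myeloid complement transcripts and 10 Kupffer cell and macrophage markers, with 2 points per group. Every PMN and metastasis liver stood above the sham mean for each gene drawn, and for C1qa, C1qb and C1qc above both sham livers.

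The 21 members known as hepatocyte products divided otherwise. In PMN livers 11 rose and 1 fell, with a median log2 fold change of 0.95, and in metastasis livers 3 rose and 2 fell, with a median of 0.54. The medians were 0.69 and 0.27 without TMM scaling and 0.76 and 0.23 on either TPM scale. In metastasis livers 17 of the 21 were positive in the main fit and 12 under each of these scalings, which also lowered the median of all genes. Hepatocyte markers had medians of 0.58 in PMN livers, with 8 of 11 positive and 1 called higher (Apob, at 1.00), and 0.20 in metastasis livers, with 9 of 11 positive and 2 called higher. The part of these shifts in the members' changes was not tested. In this list C3, Hc, C8a, C8b, C9, C4bp, Clu and Vtn were called in PMN livers and not in metastasis livers, which does not by itself show that the groups differ.

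Metastasis and PMN livers were therefore compared directly. By edgeR's adjusted p no member was called in either direction, and 0% of the 16370 genes were called higher and 0% lower (smallest adjusted p = 0.113). At an unadjusted p under 0.05, 11 members were lower in metastasis livers and 1 was higher, where the background was 6.41% and 6.99% of all genes. DESeq2, run as an alternative, called C3, Hc and C9 lower and none higher, with backgrounds of 1.81% lower and 1.55% higher. The median difference was -0.31 over the members and 0.03 over all genes, and 26 of 35 members had a lower fitted level in metastasis livers.

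The largest of these differences in size belonged to C9, at -1.32 ± 0.22 (95% interval from -1.84 to -0.79, adjusted p = 0.285). C3 differed by -1.14 ± 0.24 (interval from -1.72 to -0.57, adjusted p = 0.285) and Hc by -1.11 ± 0.22 (interval from -1.63 to -0.58, adjusted p = 0.285). C5ar2, a receptor near the limit of counting, had -1.16 with an interval from -2.64 to 0.32. C8a had -1.06 ± 0.39, Mbl2 -0.91 ± 0.27 and C8b -0.87 ± 0.25, each with an adjusted p of 0.300 or more. These intervals are for single genes and do not carry the adjustment over all genes. C2, Masp2, C6, Cd55 and Clu made up the rest of the 11, and the higher member was Colec11, at 0.81 ± 0.23 (adjusted p = 0.291). The 9 stellate cell and fibroblast markers, Colec11 included, had 8 positive differences. Their median of 0.81 equals the value of Colec11 itself, so it is not an independent comparison. The part of the other markers in the value of Colec11 was not tested.

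All 21 hepatocyte members had a lower fitted level in metastasis than in PMN livers, with differences from -1.32 to -0.11 and a median of -0.55, beside 47.8% of all genes tested with a negative difference. The hepatocyte markers had a median difference of 0.23, with 7 of 11 positive and 4 negative. The list was not tested as a set, and its genes are not independent of one another. The 8 myeloid members had a median of 0.15, with 6 positive and 2 negative. Under TPM scaling 4 of the 8 were positive, and without metastasis liver 2 the median was -0.15, so no direction can be given for this list.

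**Figure D5:**
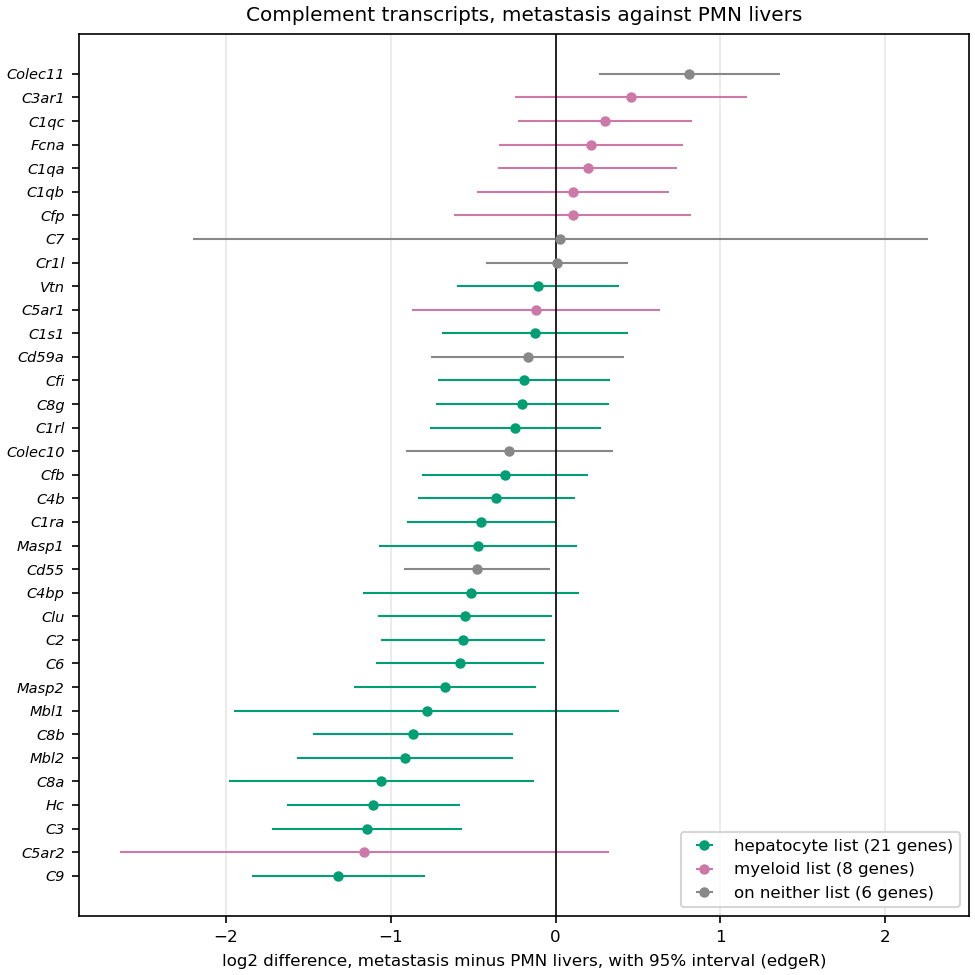
Log2 differences of metastasis minus PMN livers (edgeR) for the 35 members, ordered by size, with unadjusted 95% intervals and colours for the hepatocyte list, the myeloid list and genes on neither. C9, C5ar2, C3, Hc and C8a lay at or below -1.06, C5ar2 with a wide interval, and all points of the hepatocyte list lay below 0.

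The metastasis livers differed from each other more than the livers of the other groups. Among members at 1 CPM or more, 10 of 34 differed over 1.5-fold between the 2 metastasis livers, against 0 of 32 in sham and 3 of 35 in PMN livers. All genes showed the same order, at 43.1%, 8.88% and 17.3%. The 10 were Mbl1, Mbl2, Colec10, Masp1, Cfp, C7, C8a, C8b, C4bp and Cd59a, and 26 of the 34 were higher in liver 2, beside 49.7% of all genes at that level. Marker lists also differed between metastasis livers 1 and 2, with sums of 149 and 30.0 CPM for 2 adipocyte markers, 23.6 and 185 CPM for 5 cholangiocyte markers, 1042 and 409 CPM for 11 neutrophil markers and 544 and 1023 CPM for 10 Kupffer cell and macrophage markers. Their part in the difference was not tested. When metastasis liver 2 was left out, 12 members were called lower and 1 higher in the direct comparison, with the single remaining metastasis liver assumed to vary like the other groups. In that fit 9.02% of all genes were called lower and 7.53% higher. Without metastasis liver 1, C3 was the single member called (lower), with 0.176% of all genes called lower.

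Other genes of the complement system, 24 on a list of paralogs, further regulators, receptors and pentraxins, were examined beside the members. Of these 21 were listed and 20 tested. Leaving out Fcnb, Itgam and Cr2, which had under 10 counts in a sham liver, 8 of 17 rose and 1 fell in PMN livers, and 7 rose and none fell in metastasis livers. Over all genes tested, 4.92% were called higher and 2.38% lower in PMN livers, and 6.78% and 3.95% in metastasis livers. Serping1 (C1 inhibitor) rose by 1.45 ± 0.22 (adjusted p = 0.020) and 1.18 ± 0.22 (adjusted p = 0.026).

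Of the pentraxins, soluble pattern recognition proteins that bind C1q, Apcs and Crp rose in both, and Ptx3 is not analysed here. Apcs (serum amyloid P) went from 319 and 447 CPM to 4064 and 3567 CPM in PMN and 1975 and 3955 CPM in metastasis livers, with log2 fold changes of 3.32 ± 0.40 (adjusted p = 0.012) and 2.95 ± 0.40 (adjusted p = 0.013). Crp rose by 1.34 ± 0.21 (adjusted p = 0.021) and 0.94 ± 0.21 (adjusted p = 0.040). Cpb2, which encodes a carboxypeptidase that inactivates C3a and C5a, rose by 1.53 ± 0.24 (adjusted p = 0.022) and 1.45 ± 0.24 (adjusted p = 0.020).

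The receptor genes Cd93, Vsig4 (CRIg, on Kupffer cells) and Itgb2 (the beta chain of complement receptor 3) rose in both comparisons, with log2 fold changes of 2.11 to 2.65 in PMN and 2.17 to 2.85 in metastasis livers. Endothelial cells also express Cd93. Their markers summed to 88.3 and 98.04 CPM in sham and 202 to 259 CPM in PMN and metastasis livers. Of these markers, 3 of 6 were called higher in each comparison. The part of endothelial markers in the values of the receptor genes was not tested. Itgam, the alpha chain of complement receptor 3, had 8 and 22 counts in sham livers, 384 and 444 in PMN livers and 554 and 613 in metastasis livers. Fcnb (ficolin B, a myeloid lectin) had 0 counts in both sham livers and 60 and 147 counts in PMN livers and 137 and 85 in metastasis livers. Against a floor of 3 counts in a sham liver, its mean level was at least 41.1-fold higher in both groups. C4a rose in PMN livers by 2.27 ± 0.28 (adjusted p = 0.012), with 1.03 ± 0.27 in metastasis livers (adjusted p = 0.059). C1qbp, a mitochondrial protein first found as a C1q binder, fell in PMN livers from 56.7 and 58.5 CPM to 27.7 and 23.9 CPM (-1.16 ± 0.20, adjusted p = 0.029), with 38.5 and 30.8 CPM in metastasis livers (adjusted p = 0.067).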

How the data were processed

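Poly-A selected RNA of 6 whole livers was sequenced with a NEBNext Ultra kit. The authors aligned reads to mm10 with HISAT2 2.1.0 and deposited raw counts of uniquely mapped exon reads per gene from featureCounts (Subread 2.0.6). They also deposited TPM, which the authors computed from counts and a gene length that is not stated. The annotation and strand setting are not given in the sources used here.

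The counts were fitted over all 6 livers with edgeR 4.0.16 (quasi-likelihood test, TMM scaling, filterByExpr with a minimum count of 10) in R 4.3.3, and p-values were adjusted by Benjamini-Hochberg over 16370 genes, with a threshold of 0.05. CPM are counts divided by the TMM-scaled library size, and TPM served for comparisons between genes. Totals were 32838321 to 43368309 counts. On simulated data in which 200 of 16370 genes were changed in PMN livers, 79 of 100 genes changed 4-fold and 100 of 100 changed 16-fold were recovered. The study's methods state no model for the bulk counts. Alternatives were DESeq2 1.42.0, limma 3.58.1 on log2(TPM + 1) and log2(TPM + 0.1), other scalings and filters, only the 2 groups compared, a replicate block, and each liver left out.

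Livers are described as biological replicates and are numbered 1 and 2 in each group. All members were to be accounted for by role, those called in a comparison with sham in every liver, and the called genes of the further complement list with a group mean of 1 CPM or more by name. The members and lists were chosen with earlier results of these data known. Some genes of the further complement list are not reported here and were left out of its counts. Promoters and positions were from RefSeq tables on GRCm38.p6.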

Additional observations from a re-analysis of the deposited data

Results flagged for a closer look

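The fitted changes of C2, Colec11 and Masp2 ran in opposite directions in the 2 tumor models, with both livers of one model above the sham mean and both of the other below it. C2 had a log2 fold change of 0.22 in PMN and -0.34 in metastasis livers, Colec11 -0.34 and 0.47, and Masp2 0.046 and -0.62. None of these changes passed the edgeR test, and the difference between the models, which is the direct comparison of metastasis with PMN livers, did not pass either (adjusted p = 0.349 for C2, 0.291 for Colec11 and 0.332 for Masp2). The sign in PMN livers turned for C2 and Masp2 without TMM scaling, to -0.041 and -0.21.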

How the results depend on the processing

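With 2 livers a group, single libraries set the number of calls. Leaving out 1 liver at a time gave 0 to 28 members called higher and 0 to 3 lower in PMN against sham livers (median log2 fold change 1.37 to 1.49), 0 to 22 higher and 0 to 5 lower in metastasis against sham livers, and 0 to 1 higher and 0 to 12 lower in metastasis against PMN livers. The share of all genes called moved over the same fits, from 0 to 14.5% higher and 0 to 12.0% lower, 0 to 17.3% and 0 to 15.4%, and 0 to 7.53% and 0 to 9.02% in the 3 comparisons. DESeq2 called 2 members lower in PMN livers (6.31% of all genes), 19 higher in metastasis livers (11.5%) and 3 lower in the direct comparison (1.81%). Fits of only the 2 groups compared called 28 higher and 3 lower in PMN livers (16.3% and 14.2% of all genes) and 7 higher and 1 lower in metastasis livers (1.75% and 0.734%). The median in PMN livers was 1.28 over members with at least 10 counts in every liver, 1.22 without TMM scaling, 0.90 on log2(TPM + 1) and 1.27 on log2(TPM + 0.1), and in metastasis livers 0.41, 0.34 and 0.34 for the last 3 settings. Those settings moved the median of all genes too, to -0.25 and -0.23 without TMM, -0.10 and -0.15 on log2(TPM + 1) and -0.17 and -0.26 on log2(TPM + 0.1), while the cause of the other shifts was not tested. The directions that turned belonged to genes that were not called in the comparison concerned. Without TMM, on log2(TPM + 1) and on log2(TPM + 0.1) in turn, metastasis against sham gave C1ra -0.12, -0.15 and -0.15, C1rl -0.013, -0.043 and -0.043, Mbl1 -0.075, -0.32 and -0.33, Masp1 -0.007, -0.043 and -0.046, and C9 -0.10, -0.13 and -0.14. In PMN against sham, C2 was -0.041 without TMM and Masp2 -0.21, -0.14 and -0.14. With 1 liver left out, Mbl1 in metastasis livers ranged from -0.81 (without metastasis liver 2, edgeR adjusted p = 0.048, in a range of 0.048 to 0.981 over all settings) to 0.74, and Masp1 from -0.055 (without metastasis liver 1) to 0.56. Deviations of same-numbered livers had correlations of -0.03, 0.08 and 0.04. With 2 livers a group, these values cannot show whether the numbers pair the livers. A replicate block gave 18 members higher and 1 lower in PMN livers (4.11% and 1.58% of all genes). In metastasis livers it gave 11 higher and 2 lower (5.83% and 3.38%), and Mbl1 at -0.018. Over the 10 settings that kept all livers, C1qa, C1qb, C1qc, Fcna, C6, C8g, C3ar1 and C5ar1 were called in both comparisons in each. C3, Hc, C8a, C9, C4b, Cd55, Cfi and Cfp were called in PMN livers in each, and C5ar2 in the 9 that tested it. In PMN livers C8b was called in 9, C4bp in 8 and Clu and Vtn in 6 of the 10. In metastasis livers Mbl2, C4b and Cfp were called in 9 (edgeR adjusted p of 0.0555, 0.0612 and 0.0539 with only the 2 groups compared), Cd55 and Cfi in 6, and C5ar2 in 4 of 9. C7 and C5ar2 are limited by counts of 6 or fewer in a sham liver.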
